A study of Mus musculus with 24 samples.

Results

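The pairs described here are 236 microRNA (miR) precursors and the 192 protein-coding genes that contain them, followed across 12 pools of mouse nucleus accumbens (NAc), a ventral striatal region of reward and stress processing. A pair was kept when the precursor lay wholly inside a protein-coding gene on the same strand and both RNAs exceeded 5 reads in all 3 libraries of at least 1 group. Of 1180 listed precursors, 1044 were placed on the NCBIM37 (mm9) genome and 597 of them lay in such a gene. Of 500 precursors that passed the read filter, 452 were placed, 244 lay in a same-strand protein-coding gene, and 8 of those were dropped because the host did not pass. As a comparison set served 27 tested precursors on the strand opposite to a protein-coding gene (21 hosts), some of which also lay in a same-strand gene.

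Each pool held 10 NAc punches from 5 C57BL/6J mice, aged 9 weeks per the labels, and gave both a large RNA fraction for mRNA sequencing and a small RNA fraction for miR sequencing. The 4 groups of 3 pools were nonstressed males (NSM), males after subchronic variable stress (SCVS; SM), nonstressed females (NSF) and females after SCVS (SF), and all females were taken in estrus or proestrus. SCVS alternated foot shock, tail suspension and restraint. The small RNA and mRNA library with the same group and replicate number were treated as the same pool. Libraries held 41076780 to 60867747 mRNA counts and 5086554 to 13522287 precursor counts. Levels are given as CPM, reads per library brought to a common size with the trimmed mean of M values. Pools average mice, so p-values here measure the spread between pools. Fewer cells of a type and less RNA per cell cannot be told apart in such bulk tissue.

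A miR encoded inside a gene can be transcribed with its host. The intron or exon that holds the hairpin is then cut in the nucleus by the Drosha complex, exported by exportin-5, and cut again by Dicer before 1 strand enters an Argonaute protein. The spliced host mRNA and the mature miR have separate stabilities after that point, and some intragenic miRs have promoters of their own. miR targeting depends on the seed, bases 2 to 8 of the mature strand.

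The mature strands below are from RefSeq, with the seed in capitals. The first set belongs to the 4 pairs whose relation to the host passed adjustment across pools and to mir-3547, the member that met the call rule with its host after stress in males.

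mmu-miR-489-3p (host Calcr): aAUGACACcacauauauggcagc
mmu-miR-489-5p (host Calcr): uGUCAUAUgugugaugacacuuucu
mmu-miR-653-5p (host Calcr): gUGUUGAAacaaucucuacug
mmu-miR-653-3p (host Calcr): uUCACUGGaguuuguuucagu
mmu-miR-592-5p (host Grm8): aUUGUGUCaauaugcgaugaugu
mmu-miR-592-3p (host Grm8): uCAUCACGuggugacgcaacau
mmu-miR-135b-3p (host Lemd1): aUGUAGGGcuaaaagccauggg
mmu-miR-3547-3p (host Baiap3): uGAGCACCaccccucucucag

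The second set shows strands made from precursors in different hosts that are identical, or that differ by 1 base, so that reads of one precursor can resemble those of the other.

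mmu-miR-26a-5p (hosts Ctdspl and Ctdsp2): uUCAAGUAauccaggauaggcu
mmu-miR-218-5p (hosts Slit2 and Slit3): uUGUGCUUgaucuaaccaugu
mmu-miR-128-3p (hosts R3hdm1 and Arpp21): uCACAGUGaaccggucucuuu
mmu-miR-103-3p (hosts Pank3 and Pank2): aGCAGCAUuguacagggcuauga
mmu-miR-107-3p (host Pank1): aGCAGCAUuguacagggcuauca
mmu-miR-204-5p (host Trpm3): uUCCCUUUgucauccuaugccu
mmu-miR-211-5p (host Trpm1): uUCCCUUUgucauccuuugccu

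The third set shows clusters cut from 1 host, in which neighbouring hairpins carry like or unlike seeds.

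mmu-miR-106b-5p (host Mcm7): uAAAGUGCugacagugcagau
mmu-miR-93-5p (host Mcm7): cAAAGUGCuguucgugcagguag
mmu-miR-25-3p (host Mcm7): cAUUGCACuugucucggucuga
mmu-miR-500-3p (host Clcn5): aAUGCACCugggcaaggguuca
mmu-miR-501-3p (host Clcn5): aAUGCACCcgggcaaggauuug
mmu-miR-188-5p (host Clcn5): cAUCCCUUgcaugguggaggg
mmu-miR-532-3p (host Clcn5): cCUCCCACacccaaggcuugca

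Most precursors lay in introns (199 of 236). Another 17 overlapped a coding exon, 9 a UTR exon and 11 an exon of a noncoding transcript of the host gene. There were 182 hosts with 1 precursor and 6 with 2. Sfmbt2, a Polycomb group gene, held 30 precursors, Clcn5 held 5, the serotonin receptor gene Htr2c 4 and the replicative helicase gene Mcm7 3. Chromosome X carried 21 of the pairs. For 188 precursors no mature strand was shared with another listed precursor, 12 shared at least 1, and for 36, mostly in Sfmbt2, no mature strand was matched.

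The first question was whether a precursor and its host rose and fell together from pool to pool. A tight relation was seen in a minority of pairs. Pearson r of log2 CPM across the 12 pools was at least 0.6 in 22 of 236 pairs (9.32%), where 2.77% of all 9296500 combinations of a tested precursor with a tested gene reached that value. It was −0.6 or lower in 2 pairs, against 2.69% of combinations. The median r was 0.117 over the pairs and 0.00134 over all combinations. A positive r was found in 146 pairs (61.9%), against 50.2% of combinations. After Benjamini-Hochberg adjustment over the 263 pairs computed, same and opposite strand, 4 pairs passed 0.05 by Pearson r (permutation test over pools, two-sided) and 1 of them also by Spearman rho. At an unadjusted p under 0.05 there were 27, of which 24 were positive.

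**Figure D1:**
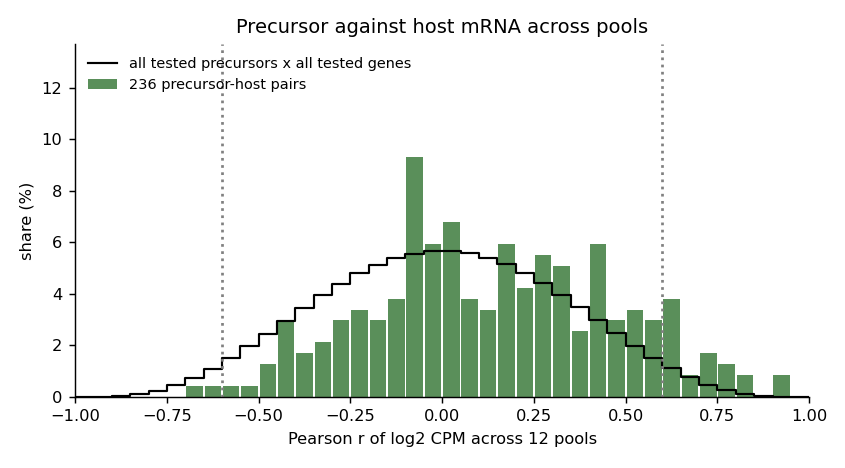
Share of pairs (bars, %) and of all precursor and gene combinations (line, %) in each step of 0.05 of Pearson r across 12 pools; dotted lines mark −0.6 and 0.6. The 236 pairs are shifted to the right of the line, with 22 at 0.6 or above, and most bars still lie between −0.5 and 0.5.

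Pools were next compared after the mean of each group was removed, which takes out mean differences of sex and stress. The median within-group r was 0.111, and 31 pairs reached 0.6 (background 4.79%) while 10 lay at −0.6 or lower (background 4.73%). By the exact permutation test within groups (smallest p 0.000772), 29 pairs had an unadjusted p under 0.05 and 0 passed after adjustment. With that smallest p, no pair could pass adjustment over 263 pairs on its own, so the 0 decides nothing about single pairs.

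The 27 precursors on the opposite strand had a median pooled r of −0.0604. Their within-group median was 0.0610, beside 0.0553 for same-strand pairs reduced to 1 precursor per host. Among them only mir-431, opposite to the imprinted gene Rtl1, reached 0.6 (r = 0.627). Counted over pairs, how far a host varied went with how closely it was followed. In the 79 pairs with the steadiest hosts the median r was 0.00200, with 3 pairs at 0.6 or more. In the next 79 it was 0.153 with 8 pairs, and in the 78 with the most variable hosts 0.225 with 11 pairs. In 152 pairs the spread of the precursor over pools was under 2 times the spread from read counting alone. In the 63 pairs in which both partners exceeded that limit, the median r was 0.164 and 7 pairs (11.1%) reached 0.6.

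Calcr, the gene of the calcitonin receptor, and its pair of intronic miRs gave the closest relation in the set. The hairpins mir-489 (chr6:3671897-3672003, minus strand) and mir-653 (chr6:3671301-3671385) lie 511 bases apart in an intron of Calcr (chr6:3635677-3714713). Calcr mRNA (CPM) was 14.85, 7.81 and 14.3 in NSM pools 1 to 3, 11.1, 7.16 and 5.42 in SM, 6.77, 7.43 and 5.32 in NSF, and 7.32, 9.50 and 6.59 in SF. mir-489 (CPM) was 11.2, 7.18 and 14.6 in the same NSM pools, 9.99, 6.07 and 4.40 in SM, 6.70, 7.20 and 4.06 in NSF, and 8.36, 10.5 and 5.98 in SF. NSM 1 and NSM 3 were the 2 highest pools in both RNAs, and NSF 3 and SM 3 the 2 lowest.

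The r of mir-489 and Calcr was 0.938 (rho 0.951). Its permutation p was 1e-05, the smallest that 100000 resamples can give (adjusted p = 0.00132 for r and 0.0105 for rho). Within groups r was 0.939 (exact permutation p = 0.00231), and without the 2 pools farthest from the median it was 0.937. For mir-653, whose seeds differ from those of mir-489, r was 0.931 (permutation p = 1e-05, adjusted p = 0.00132; rho 0.867). Within groups it was 0.972 (exact permutation p = 0.00154), and it was 0.910 without the farthest pools. Of all 18593 tested genes, none had a higher r with mir-653 than Calcr. The precursors themselves correlated at 0.929 (rho 0.909, permutation adjusted p = 0.000180 over 36 precursor relations). Mean levels were 8.02 CPM for mir-489, 7.31 CPM for mir-653 and 8.63 CPM for Calcr. These are thin counts, averaging 65.2 and 61.2 reads per library for the miRs. With any 1 pool left out, r stayed between 0.915 and 0.966 for mir-489 and between 0.904 and 0.956 for mir-653.

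Calcr and mir-489 were also lower where the summed level of cortical glutamatergic neuron markers was higher. That list (5 of 5 genes detected, none at 0) ranged from 7.0 to 22.9 CPM in NSM pools, 48.8 to 194.3 in SM, 23.0 to 355.5 in NSF and 47.5 to 119.3 in SF. Its r with Calcr was −0.655 and with mir-489 −0.674 (permutation p = 0.0210 and 0.0166, adjusted p = 0.163 for both over 171 relations; rho −0.804 and −0.734, adjusted p = 0.112 and 0.237). Within groups these were −0.302 and −0.417, and without the 2 pools farthest from the median they were −0.779 and −0.783. Choroid plexus markers (5 of 6 tested, none at 0) ran from 37.7 to 108.9 CPM in NSM and from 32.2 to 43.9 CPM in the other groups. Their r was 0.625 with Calcr (permutation p = 0.0106, adjusted p = 0.163; rho 0.615, adjusted p = 0.295; 0.195 without the farthest pools) and 0.463 with mir-489 (permutation p = 0.157, adjusted p = 0.439; rho 0.601, adjusted p = 0.295). The part of tissue composition in the pairing was not tested.

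Grm8, a presynaptic metabotropic glutamate receptor gene, holds mir-592 (chr6:27886655-27886750, minus strand) in an exon of a noncoding transcript. Grm8 mRNA (CPM) was 4.33, 2.92 and 4.47 in NSM, 3.36, 2.78 and 4.07 in SM, 4.54, 3.94 and 6.23 in NSF, and 3.44, 5.27 and 4.49 in SF. mir-592 was 506.2, 467.3 and 496.7 CPM in NSM, 463.1, 457.7 and 507.5 in SM, 498.2, 557.3 and 679.5 in NSF, and 504.6, 640.8 and 533.4 in SF. NSF 3 and SF 2 were the 2 highest pools in both RNAs, and SM 2 the lowest. The r was 0.845 (permutation p = 0.000330, adjusted p = 0.0289; rho 0.734, adjusted p = 0.292). It was 0.773 within groups (exact permutation p = 0.0131), and 0.712 without the farthest pools. The groups overlapped in both RNAs.

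Cpne7, which encodes a copine that binds membranes in the presence of calcium, and mir-7080 in one of its noncoding exons had an r of 0.706 (permutation p = 0.0105, adjusted p = 0.251). Within groups it was 0.808. Grm8 and Cpne7 were both lower in pools where the summed level of 8 accumbens projection neuron markers (8 of 8 detected, none at 0, 4070 to 5148 CPM over pools) was high. That r was −0.845 for Grm8 (permutation adjusted p = 0.0333; rho −0.818, adjusted p = 0.112; −0.898 within groups; −0.799 without the farthest pools) and −0.944 for Cpne7 (adjusted p = 0.00171; rho −0.930, adjusted p = 0.00855; −0.939 within groups; −0.898 without the farthest pools). For their miRs it was −0.645 and −0.635 (permutation adjusted p = 0.163 and 0.192). What share of these pairings came with composition was not tested.

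mir-135b lies in an intron of Lemd1 (chr1:134088013-134153958), a LEM domain gene with very little mRNA in these pools. Lemd1 averaged 0.583 CPM, or 28.1 reads per library, and mir-135b 198.4 CPM. Lemd1 ran from 0.457 CPM (SM 2) to 0.782 CPM (NSM 2), and mir-135b from 164.3 CPM (NSF 1) to 253.0 CPM (NSM 2), with SM 2 at 164.9 CPM and NSF 1 at 0.462 CPM of Lemd1. Thus the same 2 pools were lowest, and the same pool highest, in both assays. At 28.1 reads per library, however, read counting alone can give a spread as wide as that of Lemd1. The order of pools by Lemd1 is therefore uncertain. The r was 0.835 (permutation adjusted p = 0.0421; rho 0.797), and it was 0.692 within groups (exact permutation p = 0.0486) and 0.666 without the farthest pools. These 4 pairs, with Calcr counted for both of its miRs, were the ones that passed adjustment.

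**Figure D2:**
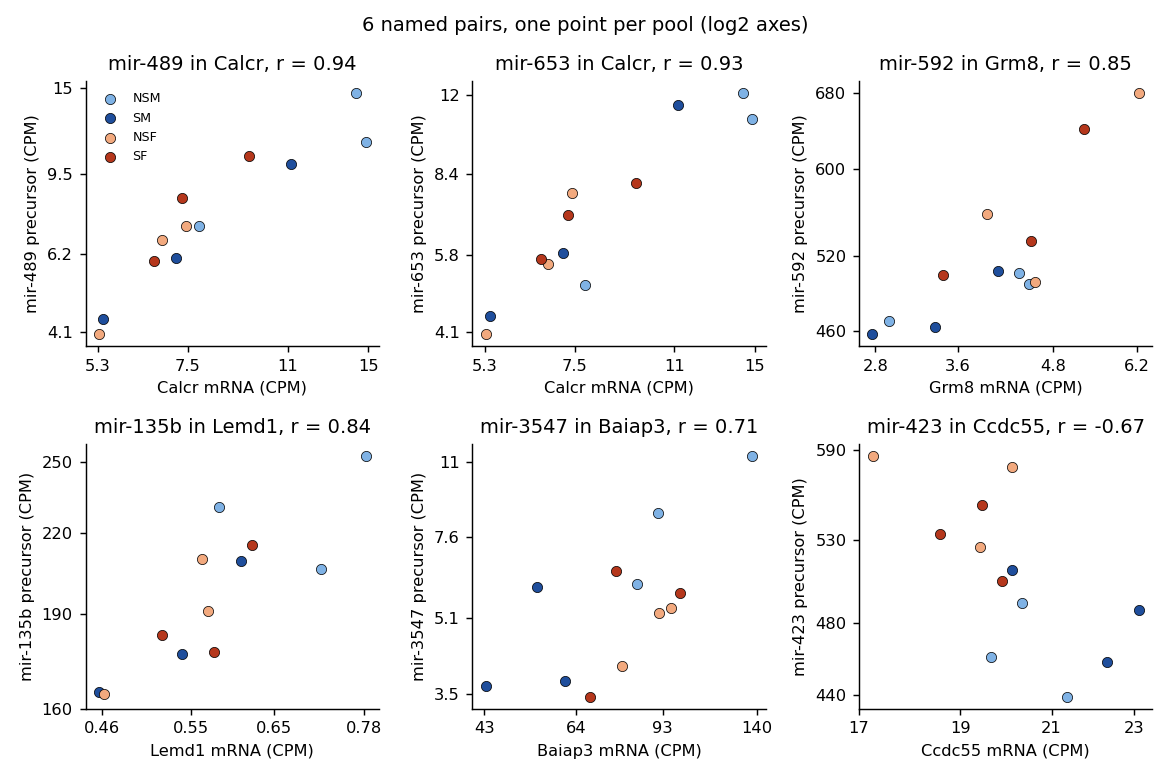
CPM of the precursor (y, log2 axis) against CPM of its host mRNA (x, log2 axis) for 6 named pairs, with 1 point per pool coloured by group (NSM, SM, NSF, SF). Points of mir-489, mir-653 and mir-592 rise with their hosts, NSM 3 is the highest pool for both mir-3547 and Baiap3, and mir-423 falls as Ccdc55 rises (r = −0.67).

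The other pairs among the 10 highest, counted where both partners averaged at least 10 reads, did not pass adjustment. They were mir-6940 in AW555464 (r = 0.788), mir-669b in Sfmbt2 (0.758), mir-879 in 9330182L06Rik (0.738), mir-3547 in Baiap3 (0.706) and mir-224 in Gabre, an epsilon subunit gene of the GABA-A receptor (0.679). Their permutation p-values ran from 0.00312 to 0.0151 before adjustment. The r of mir-3547 and Baiap3 was 0.399 without the farthest pools and 0.532 without NSM 3, and rho was 0.524 (permutation p = 0.0829). At the other end, mir-423 in Ccdc55 had an r of −0.675 and mir-15b in the condensin gene Smc4 −0.645. Next were mir-33 in Srebf2, a transcription factor of cholesterol synthesis (−0.580), mir-504 in Fgf13 (−0.507) and mir-346 in the glutamate receptor delta gene Grid1 (−0.493). The smallest of their adjusted p-values was 0.305 (permutation test). Ccdc55 stood at 19.6 to 21.4 CPM in NSM and 17.3 to 20.1 CPM in NSF. mir-423 stood at 439.3 to 491.2 CPM and 525.7 to 586.2 CPM in the same groups, so the miR was higher in every NSF pool.

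Hosts with several precursors show whether neighbours behave alike. Clcn5, an endosomal chloride and proton exchanger gene on chromosome X, was narrow in range (17.3 to 21.9 CPM over the 12 pools). Its r was 0.625 with mir-501, 0.625 with mir-532, 0.616 with mir-500, 0.504 with mir-188 and 0.172 with mir-362. NSF 3 was the lowest pool for Clcn5, mir-501, mir-532, mir-500 and mir-188. Without the farthest pools the value for mir-500 was −0.0426 and that for mir-501 0.110, so these relations rested on the extreme pools, while mir-532 kept 0.533. Levels inside this 1 gene spanned 53.4 CPM (mir-501) to 1980 CPM (mir-532). The tightest neighbours were mir-188 and mir-532, 345 bases apart (r = 0.723, rho 0.594, permutation adjusted p = 0.0289 for r and 0.126 for rho; 0.454 without the farthest pools), whereas mir-362 and mir-188 had an r of −0.228.

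In Mcm7, mir-25 and mir-106b, 332 bases apart, correlated at 0.725 (rho 0.580, permutation adjusted p = 0.0289 for r and 0.131 for rho), and at 0.823 within groups. Without the farthest pools that r was 0.305. Against the host, mir-25 gave 0.582, mir-106b 0.417 and mir-93, which lies between them and has the seed of mir-106b, −0.159. The 4 Htr2c precursors had an r of 0.125 to 0.413 with the receptor mRNA and of −0.0321 to 0.331 with each other. Their hairpins are spread over up to 155843 bases of intron. In Smc4, mir-15b and mir-16-2 share the seed AGCAGCA and lie 66 bases apart, yet their r with the host was −0.645 and −0.0949 and their r with each other 0.348. Outside Sfmbt2, 25 pairs of precursors shared a host, with a median r of 0.331. Of those, 5 (20%) reached 0.6, against 3.87% of all 124750 pairs of tested precursors.

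The 30 Sfmbt2 precursors, all of the mir-297, mir-466, mir-467 and mir-669 families, had a median r with Sfmbt2 of 0.290. Only mir-669b and mir-669d reached 0.6, and 23 of 30 were positive. Sfmbt2 itself ran from 4.07 to 6.84 CPM. The most abundant, mir-669c, averaged 507.7 CPM, while the means of the other 29 lay under 15 CPM. Its r with Sfmbt2 was −0.0177 (0.424 within groups): NSF pools held 591.5 to 709.1 CPM of mir-669c and 4.07 to 5.19 CPM of Sfmbt2, whereas NSM pools held 417.1 to 484.4 CPM and 5.54 to 6.84 CPM. Over 435 pairs of these precursors the median r was 0.174. They are near copies of each other, and how reads that fit several of them were counted is not given in the sources used here, so their separate values are uncertain.

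**Figure D3:**
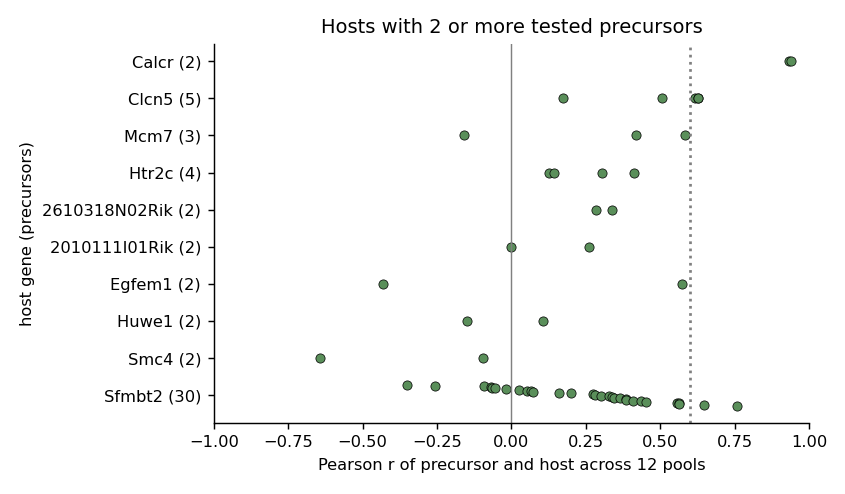
Pearson r across 12 pools (x) of each precursor with its host, for the 10 hosts with 2 or more tested precursors (y, number in brackets); 1 point per precursor, dotted line at 0.6. Both Calcr precursors lie above 0.9, the Clcn5 points spread from 0.172 to 0.625, and the 30 Sfmbt2 points from −0.350 to 0.758.

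Counts of precursors with an identical mature strand in different hosts ran in parallel, whether or not their hosts did. mir-26a-1 (Ctdspl) and mir-26a-2 (Ctdsp2), whose main strands are identical, correlated at 0.998 across pools, while their hosts, genes of small C-terminal domain phosphatases, correlated at 0.0618. mir-218-1 and mir-218-2 correlated at 0.992, and their hosts Slit2 and Slit3, axon guidance ligands, at 0.311. mir-128-1 and mir-128-2 correlated at 0.986, and R3hdm1 and Arpp21 at −0.561. mir-103-1 and mir-103-2, in the pantothenate kinase genes Pank3 and Pank2 that open coenzyme A synthesis, correlated at 0.964, and these hosts at 0.719. Each of the 4 had a permutation adjusted p of 0.000360 or less, a rho of at least 0.839, and an r of at least 0.846 without the farthest pools. Reads of such identical strands do not reveal which locus made them, and the same reads may have been counted for both precursors. These values therefore cannot show whether the 2 loci vary together.

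High values were also seen where the strands differed by 1 base, so that reads of one precursor can resemble those of the other. mir-204 (Trpm3) and mir-211 (Trpm1), of the TRP channel genes, correlated at 0.850 (rho 0.853, permutation adjusted p = 0.00314; 0.722 within groups; 0.668 without the farthest pools), and their hosts at −0.113. Trpm1 mRNA was sparse at 0.542 CPM, whereas mir-211 stood at 68.5 CPM and mir-204 at 431.6 CPM. mir-107 (Pank1) correlated with mir-103-1 at 0.881 (permutation adjusted p = 0.00120; rho 0.706; 0.706 without the farthest pools), and Pank1 with Pank3 at −0.507. Where the strands differed more, the values over all pools were lower. mir-125a with mir-125b-1 gave 0.649, mir-26b with mir-26a-2 0.424, and mir-148b with mir-152, in the coatomer genes Copz1 and Copz2, −0.253. This order did not hold without the farthest pools, where mir-26b with mir-26a-2 gave 0.740, above mir-204 with mir-211. Over the 11 family pairs among the named precursors, those with identical strands included, the median r was 0.850. Members that were not named were not searched for shared seeds.

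**Figure D4:**
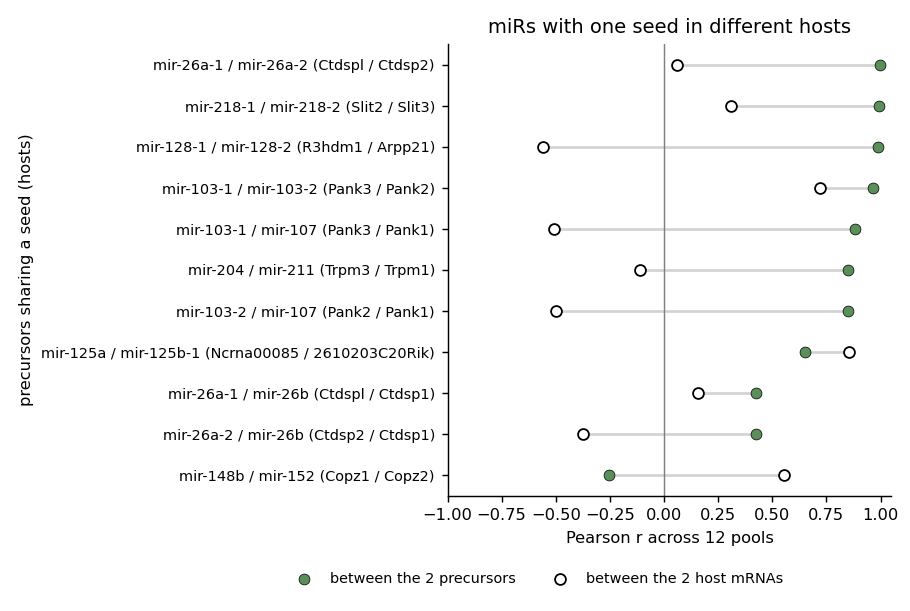
Pearson r across 12 pools (x) between 2 precursors that share a seed (filled) and between their 2 host mRNAs (open), for 11 pairs of named precursors in different hosts (y). The precursors of the upper 7 pairs lie at 0.848 or above, while their hosts range from −0.561 to 0.719.

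By role, 12 precursors lay in 9 hosts on a fixed list of neuronal receptors, channels and synaptic proteins, which did not include Grm8. Of those, 9 had a positive r and 1, mir-224 in Gabre, reached 0.6. mir-490 in the muscarinic receptor gene Chrm2 gave 0.568, mir-708 in Odz4, a teneurin gene, 0.487, and mir-326 in the arrestin gene Arrb1 0.433. mir-342 in the actin regulator gene Evl gave −0.305. The Slit genes gave 0.501 (mir-218-1 in Slit2) and 0.602 (mir-218-2 in Slit3). The 3 pantothenate kinase genes gave 0.103 to 0.504, with mir-107 and Pank1 at 0.883 within groups (exact permutation p = 0.0100, adjusted p = 0.264) but 0.250 over all pools. All 3 small phosphatase genes were negative, from −0.270 to −0.105. The 2 muscle myosin hosts on the fixed list gave −0.386 (mir-208a in Myh6) and 0.198 (mir-499 in Myh7b), with mir-208a sparse at 0.807 CPM. The member mir-208b in Myh7, also a muscle myosin gene, was not on that list.

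The second question was whether more host mRNA came with more miR. Across the 236 pairs, the rank correlation of mean precursor CPM with mean host CPM per kilobase of exon was 0.0107, as a description over pairs that partly share a host. Precursors ran from 0.499 to 49798 CPM (median 5.90) and hosts from 0.0476 to 330.6 CPM per kilobase (median 10.5). In the 79 pairs with the lowest hosts, which include the 30 in Sfmbt2, the median precursor was 6.31 CPM (quartiles 2.80 and 85.9 CPM). In the 79 with the highest hosts the median was 5.79 CPM, and the quartiles lay wider apart (1.60 and 436.2 CPM). With at least 10 reads in every library the rank correlation was 0.220, and on the opposite strand it was −0.407 over 27 pairs.

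Single pairs show how far the levels part. mir-22 reached 14956 CPM in an exon of a noncoding transcript of Tlcd2, whose mRNA stood at 0.617 CPM per kilobase. mir-128-1 was the most abundant member at 49798 CPM, with R3hdm1 at 29.4 CPM per kilobase. let-7f-2, at 33127 CPM, sat in Huwe1, a ubiquitin ligase gene at 23.2 CPM per kilobase. The strand miR-128-3p is also made from mir-128-2, and let-7f-5p carries no copy number, so both levels may include reads of other loci. mir-139, at 26807 CPM, sat in the phosphodiesterase gene Pde2a at 164.1 CPM per kilobase. Among the 10 most abundant precursors r with the host ran from −0.105 (mir-26a-2 and Ctdsp2) to 0.602 (mir-218-2 and Slit3). Precursors in coding exons had a median of 2.16 CPM, and those in introns 6.28 CPM. The median was 13.2 CPM in UTR exons and 383.8 CPM in exons of noncoding transcripts. Small RNA and mRNA levels come from different libraries, so the 2 CPM scales are not molar and only the ordering across pairs is compared.

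**Figure D5:**
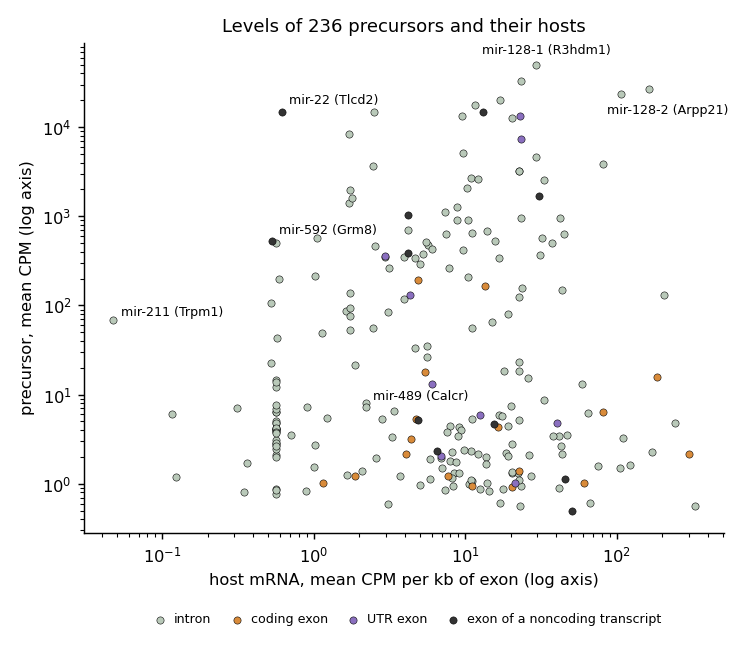
Mean CPM of each of 236 precursors (y, log axis) against mean CPM per kilobase of exon of its host (x, log axis), coloured by where the precursor lies. The cloud has no slope (rank correlation 0.0107), and the column of points near 0.57 on the x axis is Sfmbt2.

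The third question was whether SCVS or sex changed both partners. A feature was called at an unadjusted limma p under 0.05 with a change of 1.3-fold or more. In males, 7 of 192 hosts (3.65%) and 12 of 236 precursors (5.08%) were called, where 6.44% of all tested genes and 5.2% of all tested precursors were. Of these hosts 1 was higher after SCVS and 6 lower, beside 2.36% and 4.08% of all genes, and of the precursors 4 were higher and 8 lower, beside 2.8% and 2.4%. The male host count rested on single pools: it was 11 without NSM 1, 4 without NSM 3, 3 without SM 2 and 13 without SM 3. In females 1 host (0.521%) and 15 precursors (6.36%) were called, against 1.73% of genes and 4.8% of precursors. With replicate number as a block these were 2 hosts and 13 precursors. Between nonstressed females and males it was 7 hosts (3.65%) and 22 precursors (9.32%), against 5.31% and 7.6%. Without NSM 1 the hosts numbered 4, and without NSM 3 they numbered 12 with 13 precursors.

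Only 1 pair had both partners called after SCVS in males, and in females 0 did. Baiap3, a Munc13-related gene of dense-core vesicle trafficking, stood at 91.3, 83.1 and 137.1 CPM in NSM and 60.8, 43.2 and 53.9 CPM in SM. Its intronic mir-3547 (chr17:25382496-25382583, minus strand) stood at 8.55, 6.03 and 11.3 CPM in NSM and 3.73, 3.64 and 5.94 CPM in SM. Male groups did not overlap in either RNA, although SM 3 came within 0.1 CPM of NSM 2 for the miR. The log2 change was −0.96 (SE 0.18, limma adjusted p = 0.0170) for Baiap3 and −1.03 (SE 0.27, limma adjusted p = 0.134) for mir-3547. In females the values were −0.14 (SE 0.18) and 0.05 (SE 0.28), and neither passed (limma adjusted p = 0.953 and 0.990). The sex-by-stress difference was 0.82 for Baiap3 and 1.07 for mir-3547, with limma adjusted p = 0.317 and 0.460. Red blood cell markers (3 of 3 detected, none at 0) were at 16.9 to 21.1 CPM in NSM and 30.4 to 35.6 CPM in SM, and correlated with Baiap3 at −0.820 and with mir-3547 at −0.812 (permutation adjusted p = 0.0599 for both; rho −0.804 and −0.720, adjusted p = 0.112 and 0.237; −0.749 and −0.655 without the farthest pools). Oligodendrocyte markers (6 of 6, none at 0; 4423 to 4915 CPM in NSM and 5302 to 5349 CPM in SM) and microglia markers (4 of 4, none at 0; 136.7 to 146.2 CPM and 153.2 to 173.7 CPM) did not overlap between the male groups either. The r of Baiap3 was −0.445 with the oligodendrocyte list, −0.663 with the microglia list and −0.670 with the projection neuron list (permutation adjusted p = 0.439, 0.163 and 0.163). The part of these cells in the result was not tested.

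After adjustment over all genes, with no fold limit, 5 of 192 hosts fell in males, where 3.32% of all tested genes passed. These hosts were picked out after their values were seen. Except for Baiap3, their miRs did not meet the call rule, which asks for a change of 1.3-fold. Cnot3, Odz4 and Klhl3 fell by less than that themselves. Syvn1, an endoplasmic reticulum ubiquitin ligase gene, fell by 0.38 on the log2 scale, from 47.6 ± 5.07 to 36.4 ± 1.89 CPM (SD, n = 3; limma adjusted p = 0.0239), with mir-6988 at 0.18 (SE 0.31). Cnot3, of the CCR4-NOT deadenylase complex, fell by 0.34 (limma adjusted p = 0.0319) with mir-3572 at 0.26 (SE 0.32). Odz4 fell by 0.24 (limma adjusted p = 0.0245) with mir-708 at −0.10 (SE 0.11). Klhl3, an adaptor of the cullin-3 ubiquitin ligase, fell by 0.25 (limma adjusted p = 0.0377) with mir-874 at −0.24 (SE 0.09). Thus mir-874 moved by about as much as its host, without passing adjustment. A miR with a larger change than its host was mir-30c-1, at 809.7 ± 116.6 CPM in NSM and 1124 ± 115.4 CPM in SM (SD, n = 3). Its log2 change was 0.48 (SE 0.10, limma adjusted p = 0.0703). Its host Nfyc, a subunit gene of the CCAAT-binding factor, stood at 0.04 (SE 0.06). The 5p strand of mir-30c-1 is named miR-30c-5p, without a copy number, so reads of another locus may be counted with it. mir-1912 was at 0.62 (SE 0.20) while Htr2c was at 0.12 (SE 0.08), both short of adjusted significance.

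In females the called host was Slit2, at 53.1, 36.4 and 53.5 CPM in NSF and 33.4, 37.1 and 30.7 CPM in SF (log2 change −0.47, SE 0.12, limma adjusted p = 0.948). The groups overlapped by NSF 2, and without NSF 3 the change was −0.38 and not called. mir-218-1 stood at −0.12 (SE 0.10), as it did in males (−0.12, SE 0.10), where Slit2 was at −0.32 (SE 0.12, limma adjusted p = 0.154). mir-208a had a log2 change of 1.12 (SE 0.36) in females with Myh6 at −0.43 (SE 0.24), and neither passed adjustment.

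Between nonstressed females and males, 5 pairs had both partners called. mir-489 and Calcr were lower in NSF, by log2 changes of −0.85 (SE 0.33) and −0.88 (SE 0.26), and mir-653 was at −0.63 (SE 0.37), with limma adjusted p = 0.217, 0.149 and 0.457. The NSM and NSF pools did not overlap for Calcr, since the lowest NSM pool held 7.81 CPM and the highest NSF pool 7.43 CPM, and they overlapped by a narrow margin for mir-489 (7.18 and 7.20 CPM). The mir-489 call was lost without NSF 3 (−0.60), NSM 1 (−0.80) or NSM 3 (−0.63). The other 4 were Sfmbt2 (−0.38, SE 0.12) with mir-466n (−1.11) and mir-669b (−0.95), both in the host's direction, and with mir-669c (0.51) and mir-669l (0.66), both against it. The Sfmbt2 call was lost without NSF 1 (−0.30) or NSM 3 (−0.31). Among members, only mir-151 (0.30, SE 0.07) and, as a host, Nfic (0.53, SE 0.09) passed adjustment in this comparison (limma adjusted p = 0.0406 and 0.0382), where 1% of all precursors and 0.285% of all genes did. The host of mir-151, the focal adhesion kinase gene Ptk2, stood at 0.02 (SE 0.05).

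In the test of a sex difference in the stress response, 19 precursors and 4 hosts met the call rule, against 6.8% of all precursors and 4.42% of all genes, and 0 passed adjustment by limma, edgeR or DESeq2 (25 precursors and 19 hosts had an unadjusted p under 0.05 by limma). Both partners met it in mir-3547 with Baiap3 and in mir-489 with Calcr. For the latter the differences were 1.07 (SE 0.45) and 0.93 (SE 0.39). mir-204 (0.47, SE 0.15) and mir-211 (0.53, SE 0.17) met it together, while their hosts did not.

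Genes of miR processing and silencing were checked with the same fit. All 11 genes of the list were tested, and 1 of them passed adjustment by limma in males and 0 in females, where 3.32% and 0% of all genes passed. The female count was also 0 by edgeR, by DESeq2 and at an unadjusted p under 0.05 by limma, and DESeq2 gave 2 in males. Eif2c2, the older symbol of Ago2, fell from 194.3 ± 3.52 CPM in NSM to 153.7 ± 0.815 CPM in SM (SD, n = 3; log2 change −0.34, SE 0.06, limma adjusted p = 0.00853), which is below the fold limit of 1.3. Drosha stood at 128.1 ± 1.12 and 129.6 ± 5.06 CPM (limma adjusted p = 0.866) and Dicer1 at 87.5 ± 3.58 and 79.0 ± 1.56 CPM (limma adjusted p = 0.155). In females Eif2c2 was at −0.05 (SE 0.06). At an unadjusted limma p under 0.05, 4 of the 11 genes were lower in males: Eif2c2, Eif2c3, Dgcr8 and Dicer1. Among the hosts, 52 of 192 had such a p in males. Eif2c3 was at −0.28 (SE 0.07, limma adjusted p = 0.0524).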

How the data were processed

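The authors pooled punches at homogenization, sequenced polyadenylated mRNA (TruSeq v2, 50 base paired reads, TopHat2 on NCBIM37 with Ensembl version 67) and small RNA (100 base reads, those under 16 bases dropped, Bowtie on mm9, miRBase 21), and counted with HTSeq. The deposited values are raw counts per Ensembl gene and per precursor name. The methods name the mature miRBase annotation for counting, while the rows carry precursor names, so how mature reads became precursor counts is unclear. Strand setting and treatment of reads that fit several loci are not given in the sources used here.

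Hairpins from RefSeq (GRCm38.p6 table) were placed on NCBIM37 by exact full-length match (blastn 2.17.0), 197 pairs in all, and 39 by the annotated name. Hosts are GENCODE genes of Ensembl version 65. The host with most reads was taken where several overlapped. Counts were scaled with edgeR 4.0.16 and fitted with voom and limma 3.58.1 (R 4.3.3), 1 mean per group, over all 18593 genes or 500 precursors, with an offset of 0.5 reads. Correlations used 100000 permutations of pools. DESeq2 1.42.0, other scalings and filters were alternatives. The fits were tested on simulated data. Members and lists were chosen with earlier results of these data known. Pairs are named by rank of r, precursor level, hosts with 3 or more precursors, double calls, fixed host lists and the processing enzymes. Same-numbered libraries of different groups correlated at −0.0479 to 0.307 in small RNA and −0.086 to 0.316 in mRNA. All 3 exceeded 0.1 only between NSF and SF small RNA (0.116 to 0.307), while mRNA of those pools gave 0.0756 to 0.107. The labels give numbers no further meaning, so the fit has no block, and blocked counts are given for females.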

Additional observations from a re-analysis of the deposited data

How the results depend on the processing

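The positive shift of the pairs held with 1 precursor per host, without Sfmbt2 and with intronic precursors alone, at a size that moved with the choice of pairs. The median pooled r was 0.141 with DESeq2 size factors, 0.0587 with no filter, 0.153 with at least 10 reads in every library, 0.149 with an offset of 5 reads, 0.0716 without shared mature strands, and, chosen after seeing the data, 0.0661 with 1 precursor per host, 0.0871 without Sfmbt2 and 0.144 for intronic precursors, while the opposite strand gave −0.0604. The within-group median was 0.0429, 0.0793, 0.0553, 0.0586 and 0.0610 with no filter, unshared strands, 1 per host, no Sfmbt2 and the opposite strand. Pairs at 0.6 or more numbered 13 with 10 reads and 1 on the opposite strand, and within groups 20 with 1 per host and 2 on the opposite strand. The level rank correlation was 0.220 with 10 reads, −0.407 on the opposite strand, −0.116 for unshared strands, −0.0610 with 1 per host and 0.0386 not per length. Calls by adjusted p numbered 0 male precursors, 0 female hosts, 0 female precursors, 1 host and 1 precursor by sex. By the call rule at an unadjusted p, no filter gave 21, 3 and 16 hosts and 34, 30 and 41 precursors for males, females and sex. In that setting 1 interaction passed adjustment. By the same unadjusted rule, 10 reads gave 7, 6 and 12 precursors and 3 hosts by sex. DESeq2 gave 6, 7 and 10 precursors and 2 female hosts by that rule. The shares of all features called in these settings were not computed. The cause of these moves was not tested, beyond the fewer or more features tested under the filters. Without 1 pool, the values ran 18 to 30 pairs pooled and 28 to 38 within groups, medians 0.0936 to 0.157 and 0.0767 to 0.144, level correlation −0.0374 to 0.0119, hosts 3 to 13 (males), 1 to 3 (females), 4 to 12 (sex), precursors 8 to 17, 10 to 17 and 13 to 23, interactions 0 to 0. The replicate block gave 26 and 38 pairs, medians 0.0981 and 0.113, hosts 9, 2 and 8, precursors 17, 13 and 22. By depth, the median pooled r was 0.159 with at least 1000 precursor reads and 0.0690 with under 10, and 10.96% and 13.89% of pairs reached 0.6.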
